A study of Mus musculus with 11 samples.

Results

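Expression of 8 genes, Lyrm7, Tpm3, Wdfy1, Hddc3, Alpk1, Cyb5r2, Ddit4l and Adora2b, was followed in 11 bulk RNA-seq libraries of the neurofascin and ankyrin G knockout study. They were chosen by their measured NFKO values, from the genes that differed from control in the neurofascin knockout (NFKO) but not in the ankyrin G knockout (AnkGKO) or in the double knockout (DKO), and that lie outside chromosome 17. Of 22609 genes listed in the count table, 17557 had at least 10 counts over all libraries and were tested, and all 8 genes were among them. Because the NFKO libraries and their comparisons with the other genotypes chose these genes, their differences in those comparisons are described without a test. The comparison asks how far the 8 genes share one pattern across the genotypes, in particular in the DKO mice, which carry the same Nfasc deletion as the NFKO mice.

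The libraries came from untreated littermates of mixed sex, 3 of them control, 3 NFKO (Pcp2-Cre;NfascFx/Fx), 2 AnkGKO (Pcp2-Cre;AnkGFx/Fx) and 3 DKO (Pcp2-Cre;NfascFx/Fx;AnkGFx/Fx). Controls are given as NfascFx/Fx;AnkGFx/Fx and in the methods also as single floxed mice, all lacking Cre, so floxed alleles are shared by controls and mutants. The labels give both P30 and P32 as the age, C57BL/6J in one field and a mixed C57BL/6J;129 background in another, a single batch, and cerebellar hemisphere as the tissue of every library. Pcp2-Cre drives Cre mainly in Purkinje cells, a small share of cerebellar cells, and in bulk tissue fewer cells of a type and less RNA per cell cannot be told apart.

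NF186, the neuronal isoform of neurofascin, and ankyrin G, the product of Ank3, are a cell adhesion molecule and a scaffold that hold sodium channels and the spectrin lattice at the axon initial segment. The 8 genes belong to different pathways. Lyrm7, Hddc3 and Cyb5r2 act in metabolism: LYRM7 is a mitochondrial chaperone that hands the Rieske iron-sulfur protein to complex III, HDDC3 is an HD-domain hydrolase that removes phosphate from NADPH, and CYB5R2 passes electrons from NADH to cytochrome b5. ALPK1 and WDFY1 act in innate immunity: ALPK1 is a kinase that senses bacterial sugar nucleotides and phosphorylates the adaptor TIFA, which then activates TRAF6 and NF-kB, while WDFY1 is an endosomal adaptor of the Toll-like receptors TLR3 and TLR4. DDIT4L inhibits the growth kinase complex mTORC1, ADORA2B is a receptor for extracellular adenosine that raises cyclic AMP, and TPM3 is a tropomyosin that lies along actin filaments.

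The windows before the start sites of 4 genes are shown, since they belong to the 2 genes with the largest folds, Lyrm7 and Cyb5r2, and to Alpk1 and its adjacent partner Tifa, both lower in NFKO. Each holds 250 bases before a RefSeq start, from a RefSeq table built on GRCm38.p6, and was placed on GRCm39 by its 1 exact match. Capitals mark matches to the motifs searched on both strands, which are named after the sequences.
Lyrm7 (GRCm39 chr11:54751424-54751673, minus strand): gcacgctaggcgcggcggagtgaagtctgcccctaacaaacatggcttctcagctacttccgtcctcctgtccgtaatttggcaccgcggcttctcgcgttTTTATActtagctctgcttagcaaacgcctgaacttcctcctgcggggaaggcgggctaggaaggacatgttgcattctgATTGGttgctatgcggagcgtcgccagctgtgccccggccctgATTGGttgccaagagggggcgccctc
Cyb5r2 (GRCm39 chr7:107357240-107357489, minus strand): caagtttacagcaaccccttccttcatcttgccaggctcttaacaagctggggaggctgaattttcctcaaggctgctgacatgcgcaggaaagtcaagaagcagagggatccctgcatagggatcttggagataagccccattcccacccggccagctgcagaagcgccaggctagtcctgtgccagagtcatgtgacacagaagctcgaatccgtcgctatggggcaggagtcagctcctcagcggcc
Alpk1 (GRCm39 chr3:127574177-127574426, minus strand): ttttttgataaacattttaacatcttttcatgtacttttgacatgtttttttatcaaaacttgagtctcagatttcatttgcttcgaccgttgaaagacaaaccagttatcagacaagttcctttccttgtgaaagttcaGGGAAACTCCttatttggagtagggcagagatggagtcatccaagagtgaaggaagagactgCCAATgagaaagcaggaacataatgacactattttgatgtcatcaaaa
Tifa, start 1 (GRCm39 chr3:127583271-127583520, plus strand): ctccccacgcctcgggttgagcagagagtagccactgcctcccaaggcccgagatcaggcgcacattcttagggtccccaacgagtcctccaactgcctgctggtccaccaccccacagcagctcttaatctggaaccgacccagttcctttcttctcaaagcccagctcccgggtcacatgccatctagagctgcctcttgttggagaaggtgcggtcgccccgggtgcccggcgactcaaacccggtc
Tifa, start 2 (GRCm39 chr3:127584056-127584305, plus strand): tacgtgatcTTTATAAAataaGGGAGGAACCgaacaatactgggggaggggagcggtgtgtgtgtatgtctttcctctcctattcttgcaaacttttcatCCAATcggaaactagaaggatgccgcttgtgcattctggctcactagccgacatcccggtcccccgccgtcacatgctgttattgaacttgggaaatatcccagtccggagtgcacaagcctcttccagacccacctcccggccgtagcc

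The table held a window for 7 of the 8 genes, none for Wdfy1 and 2 for Tpm3. No motif was common to the members' windows. The CCAAT box, CCAAT, occurred in windows of 3 members (Lyrm7, Alpk1 and Adora2b) and in 33.8% of the 32851 windows of the whole table. The GC box, GGGCGG, occurred in 3 members (Tpm3, Ddit4l and Adora2b) against 32.7% of the table, the NF-kB site (GGGA, any 4 bases, CC) in 2 members (Tpm3 and Alpk1) against 17.6%, the TATA box, TATAAA, in 1 member (Lyrm7) against 12.4%, and the antioxidant response element, TGACNNNGC, in 1 member (Ddit4l) against 10.2%. The E-box CACGTG, the cyclic AMP response element (TGACG directly before TCA) and the interferon-stimulated response element (GAAA, any 2 bases, GAAA) were in none of them, against 6.02%, 1.55% and 2.98% of the table. Alpk1 and the second Tifa window each hold a CCAAT box and an NF-kB site, and in the latter the TATA box matches on both strands overlap. The Alpk1 window was poor in G and C, at 35.6% against a median of 52.4% over the table, and that of Adora2b was rich, at 69.6% with 22 CpG pairs against a median of 6. Such matches describe letters only.

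Reads on genes totalled 38890851 to 55822361 per library (median 47428701), so that 3 counts, the floor used here, equalled 0.0537 to 0.0771 CPM, the count scaled to a common library total, and every value of the 8 genes lay above it. Whole-gene counts of Ank3 separated the mutants labelled with its deletion, at 156 to 200 CPM in AnkGKO and DKO against 353 to 407 in control and NFKO. Pcp2-Cre is described as acting mainly in Purkinje cells, and which cells this fall in whole tissue came from was not tested. Nfasc, however, did not separate NFKO, with 622, 635 and 701 CPM against 661, 690 and 718 in control, 717 and 953 in AnkGKO and 559, 603 and 606 in DKO, so these counts, which pool all isoforms and cells, do not check the NFKO label. The markers fitted the tissue label poorly. The 8 Purkinje cell markers, all detected, summed to 417 to 1390 CPM in control, 404 to 1490 in NFKO, 378 and 404 in AnkGKO and 400 to 436 in DKO, and the 8 granule cell markers, also all detected, to 134 to 797, 140 to 677, 120 and 146, and 119 to 158 CPM. The defining genes varied most, Pcp2 of Purkinje cells from 0.0929 to 28.3 CPM and Gabra6 of granule cells from 0.0186 to 84.2 CPM, near or below the floor in several libraries and highest in control replicate 1 and NFKO replicate 1. In contrast, 12 caudal Hox genes, textbook markers of spinal cord, summed to 395 to 615 CPM, at similar levels in all genotypes. The label of cerebellar hemisphere is therefore in doubt, and the tissue of origin was not tested. Xist, the RNA of the inactive X chromosome, was at 0.344 to 1.39 CPM in all NFKO and AnkGKO libraries and at 0.428 in control replicate 3, at 28.4 together with 108 CPM of the Y-linked Ddx3y in DKO replicate 1, and at 459 to 598 in the other 4 libraries, of which control replicate 1 also held 7.20 CPM of Ddx3y.

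Levels of the 8 genes in NFKO differed by 1.87-fold to 6.05-fold from control, 5 of them higher (Lyrm7, Hddc3, Cyb5r2, Ddit4l and Adora2b) and 3 lower (Tpm3, Wdfy1 and Alpk1), with control-like levels in DKO. In edgeR (quasi-likelihood, p-values adjusted by Benjamini-Hochberg over all genes), where a call needs an adjusted p under 0.05 and a log2 fold change of at least 0.6 in size, the choice of the genes fixed all 8 as called against control, as were 0.365% of all genes tested. Against DKO, 7 of the 8 were past the same thresholds, as were 0.615% of all genes, and against AnkGKO 7 as well, as were 0.404%, in both cases all but Ddit4l. In 7 of the 8 genes all 3 NFKO libraries lay outside the range of the other 8 libraries, which held for 3.82% of all genes tested.

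**Figure D1:**
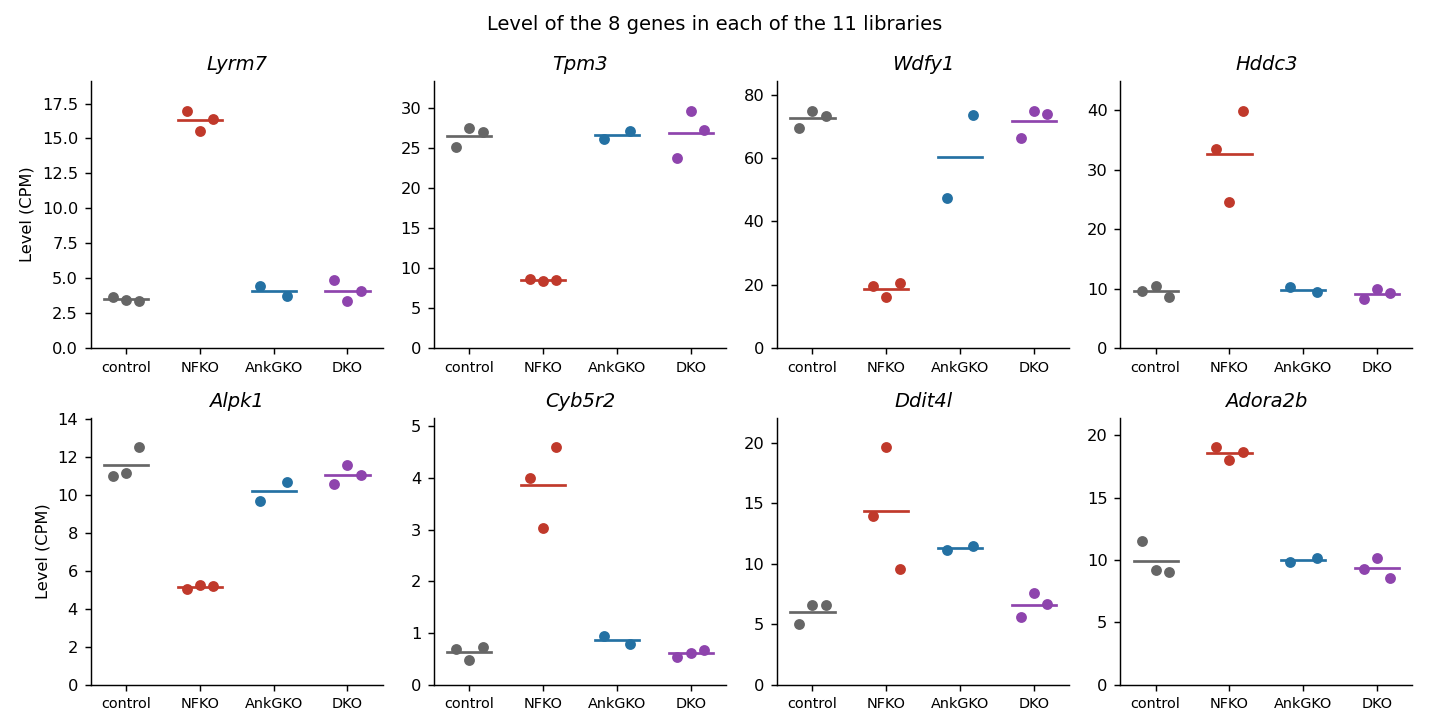
Level of each of the 8 genes in CPM (vertical axes from 0) in the 11 libraries, 1 point per library, with a bar at the mean of each genotype. The NFKO libraries stand apart from all others in every panel but that of Ddit4l, where the 2 AnkGKO libraries lie between the NFKO libraries.

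Among the metabolic genes, Lyrm7 (ENSMUSG00000020268.16, GRCm39 chr11:54717692-54751742, minus strand) was at 3.67, 3.46 and 3.38 CPM in the control libraries, 16.99, 15.5 and 16.4 in NFKO, 4.48 and 3.69 in AnkGKO and 4.88, 3.39 and 4.08 in DKO. All NFKO libraries were far above the other 8, and the other genotypes overlapped except that both AnkGKO libraries were just above all controls. The difference between NFKO and control was 2.22 on the log2 scale (SE 0.143), or 4.66-fold, and that between NFKO and DKO was 1.99 (SE 0.142). Its spread within NFKO was small, with a coefficient of variation of 4.45%.

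Hddc3 (ENSMUSG00000030532.8, chr7:79992831-80000479, plus strand) was at 9.54, 10.5 and 8.64 CPM in control, 33.4, 24.7 and 39.9 in NFKO, 10.3 and 9.39 in AnkGKO and 8.24, 9.92 and 9.34 in DKO. Control, AnkGKO and DKO overlapped fully, while the NFKO libraries were well above them and differed more among themselves, by a coefficient of variation of 23.5%. The log2 fold change was 1.77 (SE 0.157) against control and 1.83 (SE 0.158) against DKO.

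Cyb5r2 (ENSMUSG00000048065.10, chr7:107347653-107357382, minus strand), the lowest of the 8 in control per base of transcript, was at 0.702, 0.483 and 0.738 CPM in control, 3.998, 3.02 and 4.59 in NFKO, 0.949 and 0.782 in AnkGKO and 0.537, 0.607 and 0.673 in DKO. These values rest on 157 to 247 counts in each NFKO library and on 23 to 46 in each of the others. Both AnkGKO libraries were slightly above every control and DKO library, and the NFKO libraries far above all of them. Cyb5r2 showed the largest fold of the 8 genes, 6.05-fold against control (log2 fold change 2.60, SE 0.241) and 6.35-fold against DKO (2.67, SE 0.241). Within NFKO it was highest in replicate 3 and lowest in replicate 2, as were Hddc3 and Wdfy1.

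Of the innate immune genes, Wdfy1 (ENSMUSG00000073643.13, chr1:79679017-79753860, minus strand) was at 69.5, 74.9 and 73.4 CPM in control, 19.6, 16.1 and 20.4 in NFKO, 47.5 and 73.4 in AnkGKO and 66.3, 74.8 and 73.8 in DKO. It had the highest level of the 8 genes outside NFKO, and its NFKO libraries lay far below all others. AnkGKO replicate 1 stood apart from its partner and from all control and DKO libraries, at 47.5 CPM. The log2 fold change was -1.96 (SE 0.146) against control, -1.94 (SE 0.146) against DKO and -1.69 (SE 0.157) against AnkGKO, where leaving out either AnkGKO library gave -1.35 or -1.97.

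Alpk1 (ENSMUSG00000028028.13, chr3:127463323-127574176, minus strand) was at 10.996, 11.2 and 12.5 CPM in control, 5.05, 5.26 and 5.20 in NFKO, 9.70 and 10.7 in AnkGKO and 10.5, 11.6 and 11.1 in DKO. The NFKO libraries were nearly equal, with a coefficient of variation of 2.08%, and below all others, and both AnkGKO libraries were just below the controls. The level was 2.23-fold lower in NFKO than in control (log2 fold change -1.16, SE 0.0984) and 2.14-fold lower than in DKO (-1.10, SE 0.0983).

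Tpm3 (ENSMUSG00000027940.20, chr3:89979949-90008226, plus strand), the cytoskeletal member, was at 25.1, 27.5 and 27.0 CPM in control, 8.59, 8.44 and 8.47 in NFKO, 26.1 and 27.1 in AnkGKO and 23.8, 29.7 and 27.3 in DKO. Its NFKO libraries were the most alike of any member, with a coefficient of variation of 0.941%, 3.12-fold below the control mean. The log2 fold changes of NFKO were -1.64 (SE 0.0893) against control, -1.66 (SE 0.0893) against DKO and -1.65 (SE 0.0963) against AnkGKO.

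Of the signalling genes, Adora2b (ENSMUSG00000018500.4, chr11:62139804-62157279, plus strand) was at 11.5, 9.20 and 8.998 CPM in control, 19.0, 18.03 and 18.6 in NFKO, 9.82 and 10.2 in AnkGKO and 9.26, 10.1 and 8.57 in DKO. Here too NFKO stood above the other genotypes, which overlapped. The difference was the smallest of the 8, with a log2 fold change of 0.91 (SE 0.110) against control and 0.99 (SE 0.110) against DKO.

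Ddit4l (ENSMUSG00000046818.9, chr3:137327282-137334229, plus strand) was at 4.99, 6.58 and 6.59 CPM in control, 13.9, 19.6 and 9.57 in NFKO, 11.2 and 11.5 in AnkGKO and 5.58, 7.61 and 6.68 in DKO. Both AnkGKO libraries were above every control and DKO library and within the NFKO range, and the NFKO libraries varied by a coefficient of variation of 35.1%, the most of the 8 genes. The log2 fold change of NFKO was 1.25 (SE 0.229) against control, 1.117 (SE 0.228) against DKO and 0.34 (SE 0.252) against AnkGKO, and that of AnkGKO against control was 0.90 (SE 0.251), at an adjusted p = 0.394 in edgeR, with a range of 0.0305 to 1.0 over the alternatives. The description as a gene of the neurofascin knockout alone therefore rests, for Ddit4l, on AnkGKO not passing the threshold with 2 libraries. Its place inside the rule was also narrow: its adjusted p in edgeR against control was 0.0461, with 0.213 without control replicate 1 and values at or over 0.05 in 6 of the alternatives.

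Scaled by the summed length of a gene's exons, which allows levels of different genes to be compared, Wdfy1 led in control at 9.62 CPM per kb, followed by Adora2b (5.35), Tpm3 (3.27), Hddc3 (2.21), Ddit4l (1.93), Alpk1 (1.54), Lyrm7 (0.504) and Cyb5r2 (0.162). In NFKO the order of these scaled levels was Adora2b (10.02), Hddc3 (7.54), Ddit4l (4.58), Wdfy1 (2.48), Lyrm7 (2.35), Tpm3 (1.05), Cyb5r2 (0.975) and Alpk1 (0.689). Cyb5r2 and Lyrm7, which had the lowest scaled levels in control, thus reached those of Tpm3 and Wdfy1 in NFKO. The order in DKO was that of control.

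Every NFKO library was low in Xist and high in Ddx3y, as were 4 of the 8 other libraries (control replicate 3, DKO replicate 1 and both AnkGKO libraries). For Lyrm7 these 4 libraries spanned 3.38 to 4.88 CPM against 15.5 to 16.99 in NFKO, and for Alpk1 9.70 to 12.5 against 5.05 to 5.26. Ddit4l overlapped, at 5.58 to 11.5 against 9.57 to 19.6. Pcp2 was at 28.3, 2.14 and 0.0929 CPM and Gabra6 at 59.0, 4.24 and 0.0186 CPM in NFKO replicates 1, 2 and 3, an order that none of Lyrm7, Tpm3, Wdfy1, Hddc3, Alpk1, Cyb5r2, Ddit4l and Adora2b followed. The part of sex and of the cell makeup of the libraries in these results was not tested.

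The comparison of DKO with AnkGKO, which share the deletion of Ank3 and differ in that of Nfasc, was not among the comparisons that chose the genes. Both genotypes were, however, required not to be called against control, which limited how far they could differ from each other. The values are therefore given as a description, and the absence of calls is no independent result. None of the 8 genes was called, in a comparison that called 0.171% of all genes by edgeR, with adjusted p-values from 0.487 to 0.995, and 1 of the 8 had an unadjusted p under 0.05, as did 8.48% of all genes. The log2 fold change of DKO over AnkGKO was 0.01 for Lyrm7 (interval of 2 SE, -0.30 to 0.32), 0.02 for Tpm3 (-0.18 to 0.21), 0.25 for Wdfy1 (-0.07 to 0.56) and 0.12 for Alpk1 (-0.10 to 0.34). It was -0.10 for Hddc3 (-0.45 to 0.24), -0.10 for Adora2b (-0.35 to 0.14), -0.51 for Cyb5r2 (-1.05 to 0.03) and -0.78 for Ddit4l (-1.28 to -0.28). Ddit4l was the 1 gene with an unadjusted p under 0.05, and its adjusted p was 0.487 in edgeR. The intervals of the first 4 genes and of Hddc3 and Adora2b lay within 0.6 on either side of 0, and those of Cyb5r2 and Ddit4l reached beyond it on the lower side. Ddit4l was lower in each DKO library than in either AnkGKO library.

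Against control, DKO differed by -0.09 to 0.23 in log2 fold change over the 8 genes, with the 2 ends at Adora2b and Lyrm7, and AnkGKO by -0.26 (Wdfy1) to 0.90 (Ddit4l). Both comparisons share the control libraries with that of NFKO, and their values are set side by side as a description. Lyrm7 was at 0.23 (SE 0.141) in DKO and 0.22 (SE 0.157) in AnkGKO, and Cyb5r2 at -0.07 (SE 0.249) and 0.44 (SE 0.269).

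**Figure D2:**
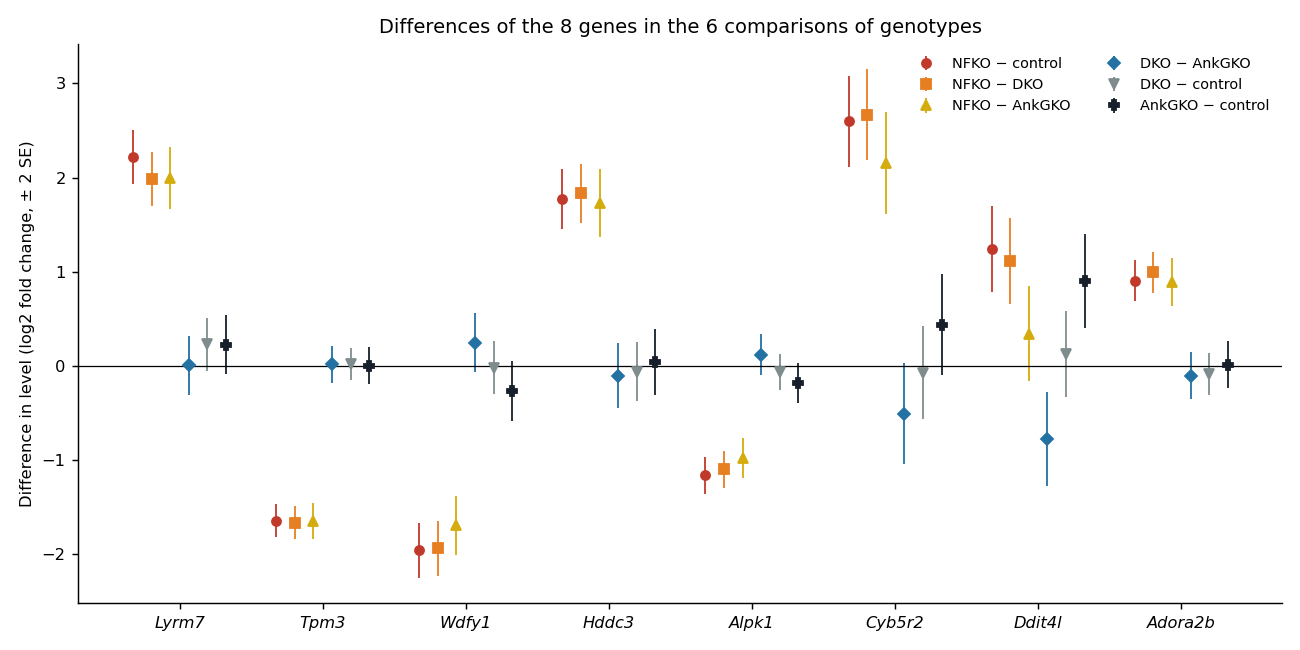
Log2 fold change (vertical axis) of each of the 8 genes in the 6 comparisons of genotypes, with bars of 2 standard errors on either side. The 3 comparisons of NFKO lie together on one side of 0 for 7 genes, the bars of the other 3 comparisons reach 0 for these genes, and for Ddit4l the bar of NFKO with AnkGKO reaches 0 while those of AnkGKO with control and of DKO with AnkGKO do not.

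Genes in the same pathways and families as the 8 genes were looked at next, 207 tested of 211 in 18 lists. In NFKO against control 1 of the 207 was called, Tifa, and 25 (12.1%) had an unadjusted p under 0.05, compared with 0.365% and 7.69% of all genes. The median log2 fold change was 0.002 over the 207 and -0.005 over all genes. DESeq2 called 4 of them, namely Tifa, Ada, Dpp4 and Tmod4. In NFKO against DKO 2 were called by edgeR, Tifa and Ada, both lower in NFKO, and 37 (17.9%) had an unadjusted p under 0.05, compared with 0.615% and 16.2% of all genes. DESeq2 also called Cald1, Cnn2, Dpp4, Tmod3 and Tmod4 against DKO, all higher in NFKO. No related gene was called by edgeR in DKO against AnkGKO, where 20 (9.66%) had an unadjusted p under 0.05.

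None of the partners of Lyrm7 was called. Among 12 genes of the LYR motif family, 15 subunits and assembly factors of complex III and 11 genes of iron-sulfur cluster assembly the log2 fold changes in NFKO against control ran from -0.32 to 0.17. The smallest p in each list belonged to Ndufa6, a complex I subunit (0.17, adjusted p = 0.492 in edgeR), Uqcc (now Uqcc1), a complex III assembly factor (-0.32, adjusted p = 0.421), and Iscu, the scaffold on which iron-sulfur clusters form (-0.22, adjusted p = 0.496), followed by Lyrm5 (-0.17), Uqcrc2 (-0.09) and Nfu1 (0.12). Lyrm4, the LYR protein of the cysteine desulfurase complex, averaged 15.6 ± 0.188 CPM over the control and 14.8 ± 1.41 CPM over the NFKO libraries (SD, n = 3 each).

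For Hddc3 none of 5 other HD-domain and related hydrolases, 14 genes of NADPH production and 14 of ferroptosis was called. Hddc2, its closest family gene by name, averaged 12.6 ± 1.77 CPM over the control and 12.4 ± 1.09 CPM over the NFKO libraries (SD, n = 3 each). The malic enzymes Me2 (0.20, adjusted p = 0.362 in edgeR) and Me3 (0.29, adjusted p = 0.519), the cystine transporter Slc7a11 (0.72, adjusted p = 0.768), ferritin heavy chain Fth1 (0.13), Nudt12 (-0.18) and Samhd1 (0.08) led their lists by p in log2 fold change of NFKO against control. For Cyb5r2 none of 10 cytochrome b5 genes and reductases or 7 fatty acid desaturases was called, with Cyb5b (-0.16), Cyb5 (-0.23), Fads6 (-0.30) and Fads2 (-0.09) at the smallest p. The reductases Cyb5r1, at 26.1 ± 2.33 CPM in control against 28.3 ± 3.03 in the NFKO libraries (SD, n = 3 each), and Cyb5r3, at 106 ± 10.5 and 110 ± 7.40 (SD, n = 3 each), differed by less than their spread.

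None of the other tropomyosins was called. Tpm1 was at 155 ± 2.76 CPM in control against 174 ± 31.7 in the NFKO libraries (SD, n = 3 each), Tpm2 at 21.3 ± 3.92 and 37.7 ± 29.5, and Tpm4 at 31.9 ± 1.89 and 37.7 ± 5.09, with log2 fold changes of 0.17, 0.82 and 0.24 and adjusted p-values of 0.825, 0.879 and 0.588 in edgeR. NFKO replicate 2 stood apart in Tpm2, at 71.8 CPM against 21.5 and 19.9 in replicates 1 and 3, which lay within the control range of 18.97 to 25.9, and in Tpm1, at 209.7 CPM against 161 and 150.2. Of the 8 tropomyosin, tropomodulin and leiomodin genes, Tmod4, a muscle tropomodulin, had the smallest p, from 0.313 ± 0.108 to 1.61 ± 1.06 CPM (SD, n = 3 each, log2 fold change 2.34, adjusted p = 0.0745 in edgeR), followed by Tmod3 (0.45). Tmod4 too was highest in NFKO replicate 2, at 2.83 CPM against 0.976 and 1.02 in the other 2. None of 16 actomyosin genes was called, with Cnn2 (0.57) and Myh9 (0.20) at the smallest p.

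Relatives of Wdfy1 were not called either, neither 9 WD and FYVE domain genes, led by Zfyve1 (-0.13) and Wdfy2 (0.10), nor 12 genes of TLR3 and TLR4 signalling. Of the latter 8 lay above and 4 below 0, with a median log2 fold change of 0.32. An unadjusted p under 0.05 was found for 4 of them (33.3%), compared with 7.69% of all genes. Tlr3, the receptor itself, went from 29.5 to 36.0 CPM (log2 fold change 0.29, adjusted p = 0.195 in edgeR) and Cd14, a co-receptor of TLR4, from 3.89 to 5.74 CPM (0.56, adjusted p = 0.273). The AnkGKO means were also above control, at 32.05 CPM for Tlr3 and 6.00 CPM for Cd14.

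By contrast, the direct partner of Alpk1 was called, in the direction of Alpk1. Tifa (chr3:127582780-127625813, plus strand) was at 15.0, 15.3 and 17.2 CPM in control, 8.13, 6.72 and 8.23 in NFKO, 12.5 and 11.9 in AnkGKO and 16.5, 18.5 and 16.1 in DKO. All 3 NFKO libraries were below all 8 others, and both AnkGKO libraries were in between. Tifa fell in NFKO by 1.04 on the log2 scale against control (SE 0.107, adjusted p = 0.000525 in edgeR) and by 1.15 against DKO (SE 0.107, adjusted p = 0.00028), past the thresholds in each alternative. Its start site lies 0.0086 Mb from that of Alpk1 on the opposite strand, so that the 2 genes point away from each other, with the Alpk1 window shown above in the gap between them and both Tifa windows within the annotated Tifa gene. Tifa is itself one of the genes that differed in NFKO only, and its position beside Alpk1 was known when the lists were drawn up. The other 19 genes of the pathway, from Traf6 to the NF-kB subunits and inhibitors, were not called, with Relb (0.31, adjusted p = 0.602 in edgeR) the next by p, and neither were the other alpha kinases, among which Alpk3 was at 0.341 ± 0.183 and 1.41 ± 1.62 CPM (SD, n = 3 each), with NFKO replicate 2 at 3.27 CPM and the other 2 at 0.497 and 0.446, and Trpm6 at 1.52 and 2.31.

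Of the mTORC1 genes around Ddit4l none of 20 was called, with Tsc2 (-0.15) and Mlst8 (-0.11) first by p. Ddit4, the paralog of Ddit4l that is better known as a stress-induced mTORC1 inhibitor, was at 50.7 ± 4.48 CPM in control, 57.2 ± 7.43 in NFKO and 105 ± 55.6 in DKO (SD, n = 3 each) and at 64.9 ± 1.87 in AnkGKO (SD, n = 2), and did not pass the test in any of these comparisons.

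Around Adora2b, the other adenosine receptors were not called, Adora1 at 347 ± 16.8 CPM in control against 334 ± 11.3 in the NFKO libraries (SD, n = 3 each) and Adora3 at 1.18 and 1.49 CPM, and neither were 13 genes of cyclic AMP signalling, led by Gnas (-0.17) and Adcy7 (0.33). Ada, the deaminase that removes adenosine, was at 2.65, 2.44 and 2.14 CPM in control, 0.861, 0.944 and 1.34 in NFKO, 1.34 and 1.56 in AnkGKO and 3.24, 3.13 and 1.84 in DKO. The NFKO libraries were below all others, by a small margin to AnkGKO. Ada fell in NFKO against DKO by 1.38 on the log2 scale (SE 0.253, adjusted p = 0.0296 in edgeR) but not past the threshold against control, with a log2 fold change of -1.20 (adjusted p = 0.0745). The call against DKO was lost in edgeR when only the libraries of these 2 genotypes were fitted (adjusted p = 0.0937) and with a replicate block (adjusted p = 0.0622). It was also lost without NFKO replicate 1 or 2 or DKO replicate 1 (0.116, 0.131 and 0.0944). Dpp4, a peptidase that binds ADA at the cell surface, averaged 2.30 CPM over the control and 7.68 CPM over the NFKO libraries (log2 fold change 1.74, adjusted p = 0.235 in edgeR).

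**Figure D3:**
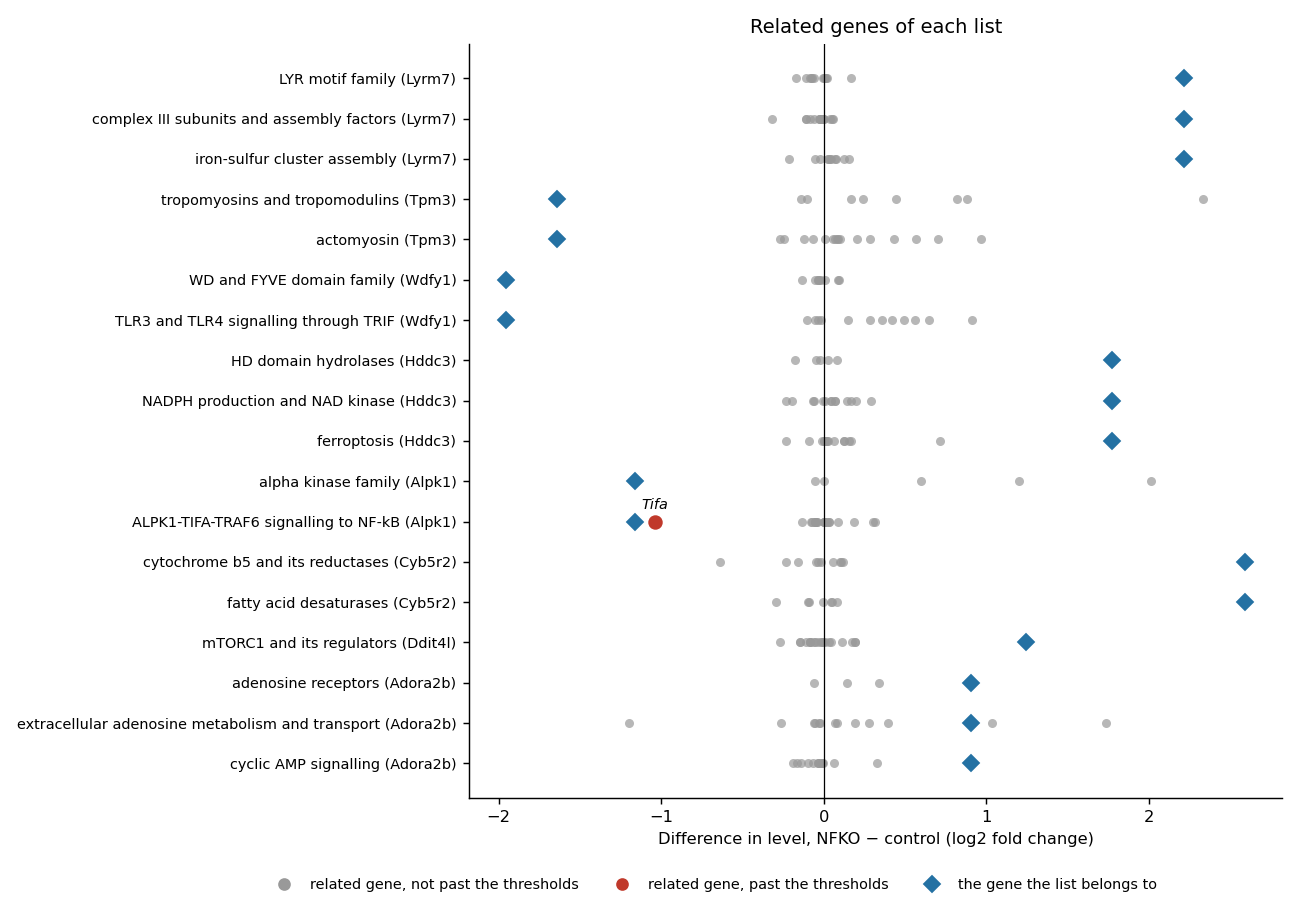
Log2 fold change in NFKO against control (horizontal axis) of every tested related gene, 1 point per gene and 1 line per list, with the gene each list belongs to as a diamond. Tifa is the 1 related gene past the thresholds in edgeR, beside Alpk1, and most other related genes lie near 0, away from the diamond of their list. DESeq2 also put Ada, Dpp4 and Tmod4 past them.

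The position of the 8 genes was uneven over the chromosomes. Tpm3, Alpk1 and Ddit4l lie on chromosome 3, Hddc3 and Cyb5r2 on chromosome 7, Lyrm7 and Adora2b on chromosome 11 and Wdfy1 on chromosome 1. Of the 56 genes called in NFKO against control and not in the other 2 mutants, 22 lie on chromosome 17, 32 on other chromosomes and 2 had no position, and 17 of the 32 were also called against both DKO and AnkGKO. The share of tested genes called in NFKO against control was 2.68% on chromosome 17 (22 of 820), 1.18% on chromosome 3 (10 of 845), 0.798% on chromosome 11 (11 of 1378), 0.576% on chromosome 1 (6 of 1041) and 0.305% on chromosome 7 (4 of 1313). Together chromosomes 3, 7 and 11 held 25 calls in 3536 genes (0.707%), against 14 in 12601 (0.111%) on the chromosomes other than these and 17. These others include chromosome 1 of Wdfy1, with 6 of the 14 calls. The share on chromosome 7 alone was below the 0.365% of all genes tested. The members are themselves among these calls and the grouping was made after seeing where they lie, so no test is given.

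**Figure D4:**
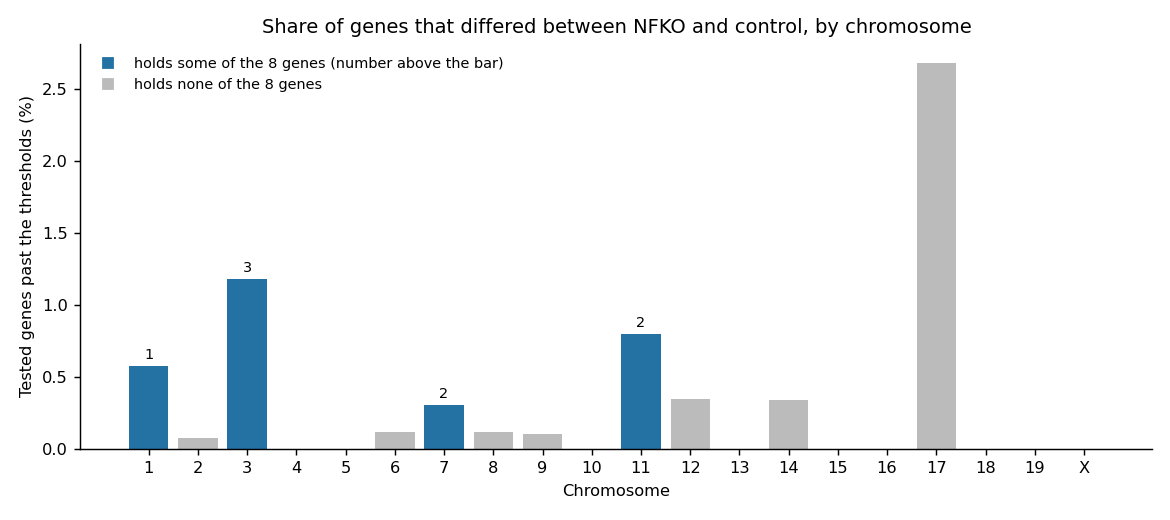
Percent of tested genes called in NFKO against control (vertical axis) on each chromosome, with the number of the 8 genes above the bars of chromosomes that hold any. Chromosome 17, left out by the choice of the genes, has the highest share, 2.68%, followed by chromosomes 3, 11 and 1, and 9 of the 20 chromosomes have no call.

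Within 1 Mb of the 8 genes lie 200 other tested genes, of which 1, Tifa, was called by edgeR in NFKO against control, where 0.365% of all genes were called. Tifa was also the 1 neighbour called by edgeR against DKO, where 0.615% of all genes were. DESeq2 called 5730508B09Rik, Dapp1 and Olfml1 as well against control, and further neighbours against DKO, among them AI854517 and Anpep. Within 5 Mb, edgeR called 5 of 666 genes against control and 7 against DKO. An unadjusted p under 0.05 was found for 26 of the 200 against control and for 45 (22.5%) against DKO, compared with 7.69% and 16.2% of all genes. Around Hddc3 it was 11 of 43 (25.6%) against control, and around Ddit4l 3 of 14 (21.4%) against control and 8 of 14 (57.1%) against DKO. Beside Cyb5r2, Olfml1 went from 28.4 to 47.4 CPM (log2 fold change 0.74, adjusted p = 0.061 in edgeR) and passed with replicate number as a block (adjusted p = 0.0431), which made 2 calls. Nearest to the others among the genes called against control were Gdf9, 1.39 Mb from Lyrm7 (log2 fold change -2.57), Tmem41b, 2.21 Mb from Cyb5r2 (-0.84), and Rps3a, 3.93 Mb from Tpm3 (-4.16), whereas no called gene lay within 10 Mb of Wdfy1 or Hddc3. Neighbours that were called lay on the same side as the member for Alpk1 and Tpm3 and on the opposite side for Lyrm7 and Cyb5r2.

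**Figure D5:**
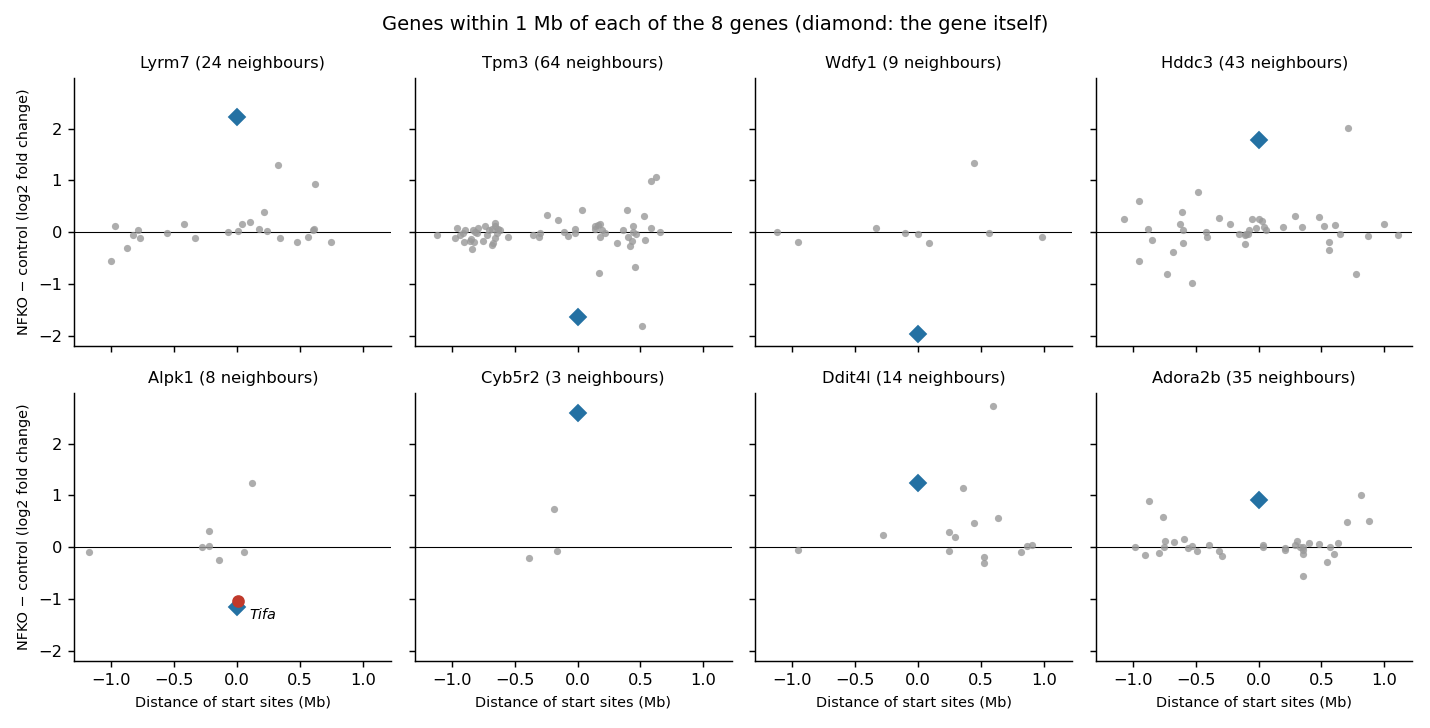
Log2 fold change in NFKO against control (vertical axis) of genes within 1 Mb of each of the 8 genes, by the distance between start sites in Mb (horizontal axis), with the member as a diamond at 0. Tifa, next to Alpk1, is the 1 neighbour past the thresholds in edgeR, and the other points scatter around 0 at every distance. DESeq2 also put 5730508B09Rik, Dapp1 and Olfml1 past them.

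How much of the members' sequence is their own bears on how their reads were counted. Words of 50 bases from all annotated transcripts of Alpk1 and Adora2b were found in no transcript of another gene, and those of Ddit4l, Wdfy1 and Lyrm7 in 0.91%, 1.4% and 1.5% of cases. In Cyb5r2 it was 18.28%, all shared with Ppfibp2, which overlaps it and was at 34.9 ± 2.10 CPM in control against 33.0 ± 1.25 in the NFKO libraries (SD, n = 3 each, log2 fold change -0.08). In Tpm3 it was 15.45%, shared with the retrocopy Tpm3-rs7 on chromosome 14, which was not among the genes counted here. Hddc3 had the largest share, 62.3%. Its words recur in Unc45a (2503 of 5035) and Man2a2 (634), which overlap it, and 23.85% recur elsewhere in the genome, for example 364 words at chr3:31395430-31396471, so the value of Hddc3 is uncertain. Unc45a was at 43.9 ± 1.24 CPM in control against 52.0 ± 6.45 in the NFKO libraries (SD, n = 3 each, log2 fold change 0.25, adjusted p = 0.437 in edgeR) and Man2a2 at 244 ± 6.45 and 282 ± 6.95 (SD, n = 3 each, 0.21, adjusted p = 0.203), both in the direction of Hddc3. How reads of the overlap were assigned was not tested. Against DKO, Man2a2 had an adjusted p = 0.0453 in edgeR at a log2 fold change of 0.26, under the fold threshold. None of the 28 tested genes that share at least 20 words with Hddc3, or of the 18 that share them with Ddit4l, was called against control. Against DKO 1 of the 28, Agt, which shares 148 words with Hddc3, was called lower (log2 fold change -0.88, adjusted p = 0.036 in edgeR), and 4 of the 28 had an unadjusted p under 0.05 against control. Reads that do not map uniquely, 32.5% to 34.3% of all reads the table lists for a library, were not counted on genes.

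Profiles over the 11 libraries were compared by the root mean square difference of standardised log2(CPM + 0.5), where 0 is identity, among genes with a mean of at least 1 CPM. Several of the nearest profiles belonged to genes of chromosome 17, which the choice of the 8 genes left out. Pkmyt1, a kinase of the cell cycle, and Rnps1, a splicing factor, were the nearest to Tpm3 (0.185 and 0.196) and to Alpk1 (0.199 for each), and Pkmyt1 and Rps2 the nearest to Wdfy1 (0.123 and 0.220). Pkmyt1 itself was at 7.71 ± 0.288 CPM in control, 2.60 ± 0.355 in NFKO and 7.93 ± 0.542 in DKO (SD, n = 3 each). Glo1, the glyoxalase that detoxifies methylglyoxal, was among the 2 nearest to Hddc3 (0.207), Cyb5r2 (0.180) and Adora2b (0.261), and was at 72.1 ± 4.004 CPM in control, 148 ± 9.47 in NFKO and 76.2 ± 2.44 in DKO (SD, n = 3 each). AA465934 on chromosome 11 was near to Adora2b (0.334), and Gm1821 on chromosome 14 and Tmem144 on chromosome 3 to Lyrm7 (0.126 and 0.153). The nearest to Ddit4l, Tmem88 (0.296) and H2-T24 (0.366), were less alike than the nearest of any other member, and both were also higher in AnkGKO, at 1.71 ± 0.137 and 4.16 ± 0.601 CPM (SD, n = 2), than in control, at 1.10 ± 0.246 and 2.52 ± 0.319 CPM (SD, n = 3).

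Compared in the same way among themselves, the genes that were higher in NFKO differed by 0.197 (Hddc3 and Cyb5r2) to 0.316 (Lyrm7 and Adora2b) when Ddit4l was left aside, and those that were lower by 0.164 (Tpm3 and Alpk1) to 0.214 (Tpm3 and Wdfy1). With 1 profile turned over, Lyrm7 and Tpm3 differed by 0.117, the smallest value of any pair. Ddit4l differed by 0.771 to 0.843 from the other 4 genes that were higher. These values describe profiles that the choice of the genes had made alike.

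Genes just inside and just outside the rule show where its border fell. The least clear call in NFKO against control outside chromosome 17 was Ublcp1 (log2 fold change -1.08, adjusted p = 0.0493), followed by Ddit4l. Beta-s (0.97, adjusted p = 0.0506) and Invs (-0.67, adjusted p = 0.053) missed the p threshold of the same edgeR test, and Rnf41 (-0.55) and Exosc9 (-0.54) missed the fold threshold. Among the 32 genes called outside chromosome 17, Tpm3, Lyrm7, Wdfy1, Alpk1, Hddc3 and Cyb5r2 had the smallest p-values, in that order.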

How the data were processed

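Libraries were polyA-selected RNA prepared with a directional kit. The labels give single reads of 100 bases and the methods paired reads. According to the submitters' processing notes the authors used FastQC 0.12.1, Trimmomatic 0.39, STAR 2.7.11a, GRCm39, R 4.3.2 and DESeq2 1.40.2. The deposited counts are raw reads per gene, with 5 summary lines left out here. The deposited normalized signal equals those counts divided by 1 size factor per library and was used as a check only.

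Symbols were matched to the GRCm39 annotation (18294 directly, 2232 as synonyms, 2083 without match). Counts were scaled to CPM with TMM factors and tested in edgeR 4.0.16 (R 4.3.3, quasi-likelihood, Benjamini-Hochberg adjustment) over genes with at least 10 counts in all 11 libraries together, with 1 term per genotype. The script was tested on simulated data. Calls needed an adjusted p under 0.05 and a log2 fold change of at least 0.6 in size. Alternatives were DESeq2 1.42.0, its size factors in edgeR, other filters, fits of only the groups compared, a fold threshold of 1, 5 Mb for neighbours, a replicate block and leaving out each library. Intervals of 2 SE give the uncertainty of the difference between genotype means, judged from the spread between libraries.

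The 8 genes, the lists and the rule for named genes were chosen with earlier results of these data known. That rule took the called related and neighbouring genes, the 2 smallest p-values per list, near family genes, genes sharing at least 20 words of 50 bases (only the leading ones are named), the 2 nearest profiles and the genes at the thresholds. One gene that the rule names is not reported here. The interaction was chosen after seeing the data. AnkGKO has 2 labelled libraries. Same-numbered NFKO and control libraries deviated together (r = 0.547, 0.444 and 0.216), so their numbers may mark pairs, although the labels state no pairing. The values printed come from the fit without a block, and the blocked value is given where it changed a call. P-values weigh the difference between genotype means against the spread between these libraries.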

Additional observations from a re-analysis of the deposited data

Results flagged for a closer look

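For 2 related genes the change from AnkGKO to DKO differed from that from control to NFKO by a test of the difference itself, the interaction term of the edgeR fit over all 11 libraries, a contrast chosen after seeing the data. For Tifa, the partner of Alpk1, the change from AnkGKO to DKO was 0.48 on the log2 scale and that from control to NFKO -1.04, a difference of 1.514 (SE 0.160, adjusted p = 0.000826), and with a replicate block 1.494 (adjusted p = 0.00608). For Ada, the adenosine deaminase, the changes were 0.91 and -1.20, a difference of 2.109 (SE 0.381, adjusted p = 0.0289), which missed the threshold with a replicate block (adjusted p = 0.0763). The 3 NFKO libraries of either gene were below all 8 others, and all 3 DKO libraries were above both AnkGKO libraries. Both genes were picked out by the same NFKO libraries, so these values are no independent support.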

How the results depend on the processing

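Over the alternatives, log2 fold changes of the 8 genes kept their sign in NFKO against control and against DKO. In DKO against AnkGKO values near 0 turned sign for Lyrm7 (-0.13 without AnkGKO replicate 2 and -0.129 without DKO replicate 1, at most 0.155), Tpm3 (-0.012 without AnkGKO replicate 1 and -0.057 without DKO replicate 2, at most 0.098) and Wdfy1 (-0.035 without AnkGKO replicate 1, at most 0.585). Ddit4l passed in NFKO against DKO with DESeq2 (adjusted p = 5.78e-05). Against AnkGKO, Cyb5r2 missed the edgeR threshold in 1 setting (adjusted p = 0.0735) and Adora2b in 2 (at most 0.117). With DESeq2, calls rose from 64 to 159 (NFKO against control), 108 to 418 (NFKO against DKO), 71 to 198 (NFKO against AnkGKO) and 30 to 99 (DKO against AnkGKO), and each set included all edgeR calls. Related genes went from 1 to 4 against control and from 2 to 7 against DKO, and neighbours from 1 to 4 and from 1 to 8. A fold threshold of 1 left 69 calls in NFKO against DKO, and fitting DKO and AnkGKO alone left 11. Within 5 Mb, 5 neighbours were called against control and 7 against DKO.

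Leaving out 1 library gave 40 (without NFKO replicate 1) to 55 calls in NFKO against control, 68 (without NFKO replicate 1) to 162 (without DKO replicate 2) against DKO, 28 (without AnkGKO replicate 1) to 48 against AnkGKO, with 37, 35 and 30 without NFKO replicate 1, NFKO replicate 3 and AnkGKO replicate 2, and 12 (without DKO replicate 3) to 40 in DKO against AnkGKO, with 15, 14 and 18 without AnkGKO replicate 1, AnkGKO replicate 2 and DKO replicate 1. Where 1 AnkGKO library was left, it was assumed to vary like the other groups. Related genes numbered 1 to 1 against control and 1 to 3 against DKO, and neighbours 1 to 2 and 1 to 3. With a replicate block, calls numbered 55, 85, 53 and 30 in the 4 comparisons, sharing 49, 74, 48 and 27 genes with the fit without the block. Under this block 2 neighbours were called against control, 2 against DKO (AI854517 being added) and 1 related gene against DKO, where Ada was lost (adjusted p = 0.0622), and Ddit4l passed against DKO (adjusted p = 0.0455). Same-numbered libraries in the other comparisons gave r from -0.424 to 0.356, a range that partly overlaps that of NFKO and control. The causes were not tested. With 2 AnkGKO libraries, and 23 to 46 counts of Cyb5r2 outside NFKO, small differences were not detectable.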
